A study of Mus musculus with 8 samples.

Results

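The 10 chemokine genes Ccl2, Ccl6, Ccl7, Ccl8, Ccl9, Ccl11, Cxcl1, Cxcl12, Cxcl13 and Cxcl14 were taken by name from a table of 37417 genes, and each name matched 1 gene. RNA had been sequenced from epididymal fat, the visceral depot beside the epididymis, of 4 Atg3 knockout (KO) and 4 wild-type (WT) male mice of strain C57Bl/6, all fed chow and all given tamoxifen. KO mice were Adiponectin-Cre ERT2-Atg3 flox/flox: Cre recombinase that tamoxifen switches on, driven by the adiponectin promoter, cuts the floxed Atg3 gene in adipocytes. The labels give WT mice no allele beyond "WT", and no age. The knockout is limited to adipocytes, so the immune, vascular and stromal cells of the pad keep Atg3, and several of the chemokines are made mainly by those cells.

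Chemokines are small secreted proteins that guide cells along concentration gradients through G protein-coupled receptors. In fat they draw in monocytes and lymphocytes and hold resident leukocytes in place, and in obesity Ccl2 is known for recruiting macrophages. Their class is set by the spacing of the leading cysteines of the mature protein: adjacent in the CC class (Ccl genes) and parted by 1 residue in the CXC class (Cxcl genes). Many chemokine genes lie in clusters, and many are switched on by NF-kappaB, the transcription factor downstream of TNF and interleukin 1.

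The stretch that sets the class is shown for each gene, since it is what tells the 2 kinds apart. Each line gives 30 coding bases of a GENCODE M21 transcript in build mm10, 5′ to 3′ on the gene's own strand, and the capitals mark the codons of the defining cysteines. The CC genes read as follows.
Ccl2, chr11:82036494-82036523, plus strand: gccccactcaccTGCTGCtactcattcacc
Ccl7, chr11:82046526-82046555, plus strand: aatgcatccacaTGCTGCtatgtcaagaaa
Ccl11, chr11:82061684-82061713, plus strand: atcccaacttccTGCTGCtttatcatgacc
Ccl8, chr11:82116044-82116073, plus strand: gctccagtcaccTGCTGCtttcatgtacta
Ccl9, chr11:83575914-83575943, minus strand: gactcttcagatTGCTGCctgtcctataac
Ccl6, chr11:83589374-83589403, minus strand: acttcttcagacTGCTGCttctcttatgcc
The CXC genes read as follows.
Cxcl1, chr5:90891484-90891513, plus strand: aatgagctgcgcTGTcagTGCctgcagacc
Cxcl12, chr6:117171496-117171525, plus strand: ctgagctaccgaTGCcccTGCcggttcttc
Cxcl13, chr5:95958652-95958681, plus strand: acaaacttaaaaTGTaggTGTtctggagtg
Cxcl14, chr13:56295906-56296113, minus strand: gacgggtccaagTGTaagTGTtcccggaag
All 6 CC genes carry the same joined codon pair, while each CXC gene has 1 other codon between its cysteines. The windows lie in exon 2 of Ccl2, Ccl7, Ccl11, Ccl8, Cxcl1, Cxcl12 and Cxcl13, and in exon 3 of Ccl9 and Ccl6. That of Cxcl14 runs over the junction of exons 1 and 2, so its coordinates span 208 bases of the genome.

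In the genome, Ccl2, Ccl7, Ccl11 and Ccl8 lie in this order on the plus strand of chromosome 11, with 8.26, 10.3 and 52.2 kb between them; Ccl12, another ligand gene (chr11:82101845-82103400), sits between Ccl11 and Ccl8. Ccl9 and Ccl6 sit 9.245 kb apart on the minus strand of the same chromosome, 1456 kb beyond Ccl8. Cxcl1 and Cxcl13 lie 5064 kb apart on the plus strand of chromosome 5, Cxcl12 on the plus strand of chromosome 6 and Cxcl14 on the minus strand of chromosome 13. In the file's mm10 coordinates these genes run from Ccl2 (chr11:82035571-82037453) over Ccl7 (chr11:82045712-82047525) and Ccl11 (chr11:82057823-82062955) to Ccl8 (chr11:82115185-82116799). Ccl9 spans chr11:83572919-83578636 and Ccl6 chr11:83587882-83593087. The CXC genes are Cxcl1 (chr5:90891241-90893115), Cxcl13 (chr5:95956926-95961067), Cxcl12 (chr6:117168535-117181367) and Cxcl14 (chr13:56288647-56296551).

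All 10 genes passed the filter on low counts, and their levels spanned a wide range. FPKM values, which the authors scaled to exonic length and library total, allow genes to be set beside each other. Over the 8 libraries Ccl8 averaged 118.5 FPKM, followed by Ccl6 (61.55 FPKM), Cxcl12 (48.6 FPKM), Ccl11 (47.3 FPKM), Cxcl13 (33.2 FPKM) and Ccl9 (22.0 FPKM). Ccl7 (15.2 FPKM), Ccl2 (13.7 FPKM), Cxcl1 (5.77 FPKM) and Cxcl14 (4.53 FPKM) were the lowest. Ccl8 stood above Ccl6 in 8 of 8 libraries, while Ccl6 stood above Cxcl12 in 6 of 8 and Cxcl12 above Ccl11 in only 4 of 8, so the order of those neighbours was not fixed. The order by mean was the same in KO and WT fat except that Cxcl1 and Cxcl14 changed places. Mean levels were 4.02 ± 0.947 FPKM for Cxcl1 and 5.27 ± 0.896 FPKM for Cxcl14 in KO fat, and 7.53 ± 6.62 FPKM for Cxcl1 and 3.80 ± 0.843 FPKM for Cxcl14 in WT fat (SD, n = 4). Each pair of neighbours in this order overlapped in its ranges over the 8 libraries. The order rests on the exonic lengths used for scaling, which were 511 bases for Ccl8 and 8176 bases for Cxcl12. Before that scaling Cxcl12 had more reads, 4182 to 9781 per library, against 442 to 1180 for Ccl8.

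**Figure D1:**
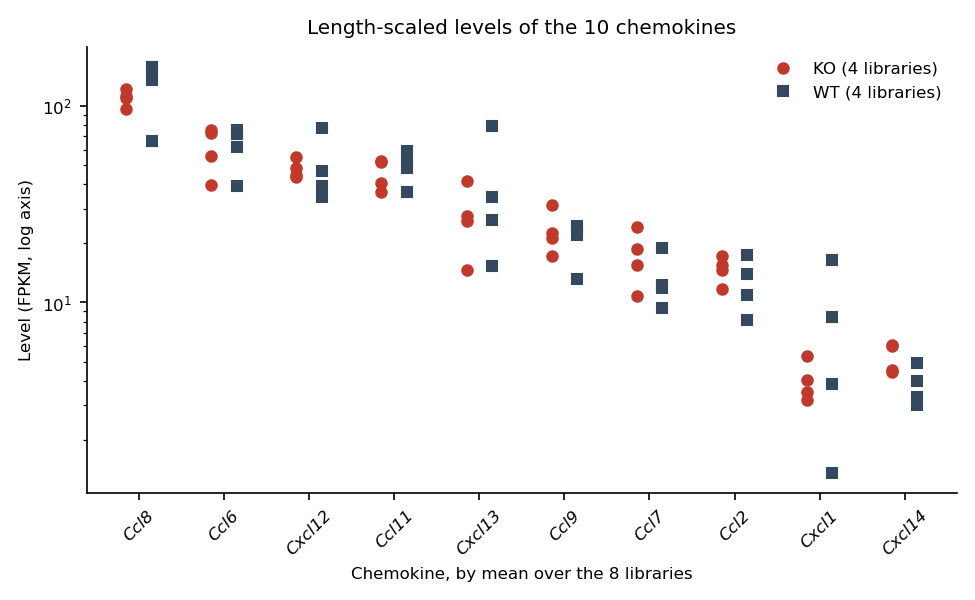
Length-scaled level of each chemokine (FPKM, logarithmic axis) in the 4 KO (circles) and 4 WT (squares) libraries, ordered by the mean over all 8. Ccl8 is the highest at 118.5 FPKM on average, and the 4 WT values of Cxcl1 spread from 1.36 to 16.4 FPKM.

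The comparison of the genotypes asked whether loss of Atg3 in adipocytes went with other chemokine transcript levels in the fat pad. None of the 10 chemokines passed an adjusted p of 0.05 in edgeR's quasi-likelihood test over 14800 genes (0 of 10), against 0.405% of all genes tested, 60 in number (0.277% higher and 0.128% lower in KO). DESeq2, which called 5.49% of all genes tested, and limma-voom likewise called 0 of 10. An unadjusted p under 0.05 was reached by 1 of the 10, Cxcl14, where 16.2% of all genes tested reached it. KO and WT libraries overlapped for each of the 10, while 8.86% of all genes tested had groups that did not overlap. The estimate was above 0 for 4 chemokines and below 0 for 6, where 47.6% of all genes tested were above 0, and the median log2 fold change (KO over WT) was -0.04, beside -0.01 over all genes tested. Atg3 itself fell to 30.3 ± 1.84 CPM in KO fat, against 50.2 ± 4.34 CPM in WT fat (SD, n = 4, log2 fold change -0.73, SE 0.086, adjusted p = 0.0168). In whole tissue, fewer cells of a type and less RNA per cell cannot be told apart. Levels from here on are CPM, reads scaled to library size, and compare 1 gene between libraries.

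The monocyte-attracting CC chemokines come first. Ccl2, which draws monocytes through CCR2, held 19.5, 16.7, 12.7 and 18.3 CPM in KO libraries 1 to 4, against 14.96, 12.5, 21.2 and 9.43 CPM in WT libraries 1 to 4. The highest and the lowest of these values were both WT. The log2 fold change was 0.22 (SE 0.24, 95% interval -0.33 to 0.76, edgeR adjusted p = 0.709), so the interval runs from 0.795-fold to 1.69-fold. It was 0.05 without WT library 4 and 0.46 without WT library 3. Ccl7, a neighbouring gene whose product also binds CCR2, held 19.4, 12.4, 8.24 and 15.6 CPM in KO libraries and 14.3, 9.93, 10.2 and 7.60 CPM in WT libraries. KO libraries 1 and 4 were above each WT library, and KO library 3 was below 3 of the 4. Its log2 fold change was 0.41 (SE 0.28, 95% interval -0.21 to 1.03, adjusted p = 0.507), and it was 0.21 without KO library 1 and 0.60 without KO library 3.

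Ccl8 and Ccl11 lie in the same gene cluster. Ccl8, in the mouse a ligand of CCR8, held 62.1, 56.2, 54.7 and 51.4 CPM in KO libraries, against 75.9, 69.35, 36.2 and 76.8 CPM in WT libraries. The KO values lay close together, inside the gap between WT library 3 and the other WT libraries. The log2 fold change was -0.21 (SE 0.21, 95% interval -0.68 to 0.27, adjusted p = 0.677), and it was -0.40 without WT library 3 and -0.11 without WT library 4. Ccl11 (eotaxin), which draws eosinophils through CCR3, held 56.2, 43.8, 37.8 and 59.0 CPM in KO libraries and 49.2, 57.7, 68.2 and 39.9 CPM in WT libraries. Both groups covered much the same range. Its log2 fold change was -0.13 (SE 0.19, 95% interval -0.55 to 0.30, adjusted p = 0.787), the narrowest interval of the 10, from 0.682-fold to 1.23-fold. Ccl12, the gene between them, held 5.31, 7.85, 4.83 and 5.09 CPM in KO libraries, against 4.56, 3.58, 2.54 and 4.78 CPM in WT libraries. These groups did not overlap (log2 fold change 0.57, SE 0.25, unadjusted p = 0.0502, edgeR adjusted p = 0.309). In chromosome order the estimates were positive for Ccl2 and Ccl7, negative for Ccl11, positive for Ccl12 and negative for Ccl8, none past the threshold; Ccl12 falls outside the rule for named genes and was chosen after its values were seen.

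Ccl6 and Ccl9 are macrophage-made ligands of CCR1. Ccl6 held 99.6, 71.2, 124.6 and 140.6 CPM in KO libraries, against 122.3, 136.5, 118.9 and 71.6 CPM in WT libraries. The range was nearly the same in both genotypes, and the log2 fold change was -0.04 (SE 0.24, 95% interval -0.59 to 0.50, adjusted p = 0.951). Ccl9 held 68.6, 52.5, 61.8 and 99.5 CPM in KO libraries and 70.2, 73.35, 71.3 and 40.7 CPM in WT libraries. KO library 4 was the highest of the 8 and WT library 4 the lowest, while the other 6 lay between them. The log2 fold change was 0.15 (SE 0.23, 95% interval -0.38 to 0.67, adjusted p = 0.801), and it was -0.07 without KO library 4 and -0.02 without WT library 4. Among the 10, Ccl6 and Ccl9 were the pair with the most similar pattern over the libraries. Their log2 levels, each centred on its own mean, differed by 0.192 (root mean square).

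**Figure D2:**
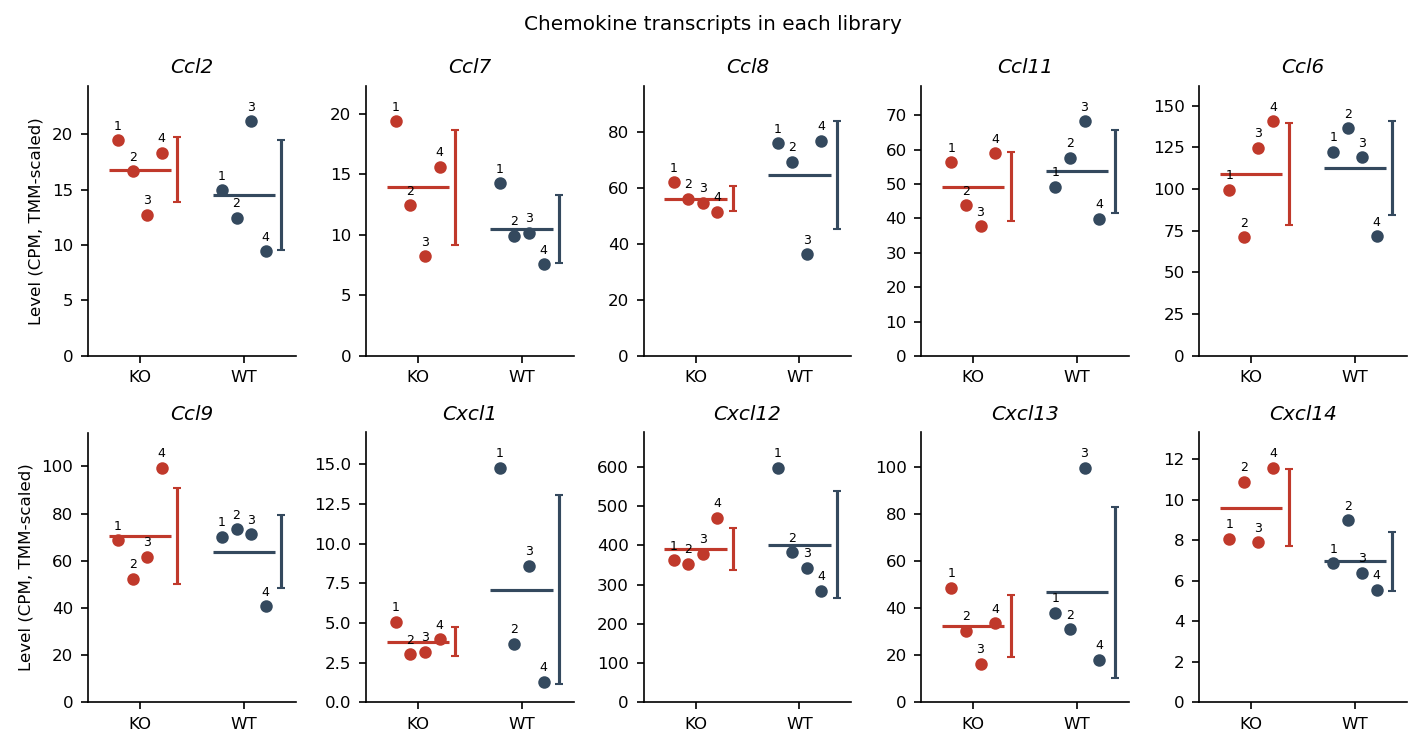
Level of each chemokine (CPM, linear axis from 0) in each library, numbered 1 to 4, with KO left of WT; horizontal lines are group means and the bars beside them span 1 SD either way (n = 4 each). KO and WT libraries overlap in each of the 10 panels, and the WT libraries of Cxcl1 and Cxcl13 are the most scattered.

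Among the CXC genes, Cxcl1 and Cxcl13 varied most from mouse to mouse. Cxcl1, a neutrophil attractant that acts on CXCR2, held 5.08, 3.04, 3.20 and 3.99 CPM in KO libraries, against 14.8, 3.70, 8.61 and 1.31 CPM in WT libraries. The 4 KO values lay within a 1.67-fold range, all of them inside the 11.3-fold range of the WT values. Its log2 fold change was -0.88 (SE 0.60, 95% interval -2.24 to 0.48, adjusted p = 0.515). The interval covers from 0.211-fold to 1.40-fold, so these 8 libraries leave a wide span of possible differences. Without WT library 1 the log2 fold change was -0.24, with limma-voom it was -0.30, and without WT library 4 it was -1.23. Read numbers limit this gene too: WT library 4 held 20 reads, with an exact 95% Poisson interval from 12.2 to 30.9 that covers counting error only.

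Cxcl13, which draws B cells through CXCR5, held 48.8, 30.5, 16.5 and 33.7 CPM in KO libraries, against 38.0, 31.0, 99.7 and 18.2 CPM in WT libraries. WT library 3 held more than each of the other 7. The log2 fold change was -0.52 (SE 0.50, 95% interval -1.66 to 0.61, adjusted p = 0.654), and it was 0.16 without WT library 3, so 1 library set its sign. Cxcl12, the stromal ligand of CXCR4 that retains leukocytes and progenitor cells, held 362, 353, 379 and 470 CPM in KO libraries and 597, 382, 343 and 284 CPM in WT libraries. The highest and the lowest value were WT, and the log2 fold change was -0.04 (SE 0.22, 95% interval -0.53 to 0.45, adjusted p = 0.949). Without WT library 1 it was 0.22 (adjusted p = 0.514).

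Cxcl14, a chemokine of epithelia and stroma, had the lowest p-value of the 10. It held 8.08, 10.9, 7.90 and 11.6 CPM in KO libraries, against 6.88, 8.99, 6.40 and 5.57 CPM in WT libraries. KO libraries 2 and 4 lay above each WT library, while WT library 2 lay above KO libraries 1 and 3. Mean levels were 9.61 ± 1.90 CPM in KO fat and 6.96 ± 1.46 CPM in WT fat (SD, n = 4), a log2 fold change of 0.47 (SE 0.20, 95% interval 0.01 to 0.93, unadjusted p = 0.0476, edgeR adjusted p = 0.303). The estimate stayed above 0 in each of the 18 alternative settings, from 0.36 to 0.61, and passed in none (adjusted p from 0.255 to 0.629).

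The spread between mice was measured as the SD of log2 CPM. It was wider in WT than in KO fat for 8 of the 10 chemokines, Ccl6 and Ccl7 being the exceptions. Over all 14754 tested genes with reads in every library the WT spread was the wider one for 56.9%. The median SD of log2 CPM was 0.321 in KO and 0.435 in WT libraries over the 10 chemokines, and 0.185 in KO and 0.203 in WT libraries over those genes. The count depends on the measure. By the SD of CPM itself, Ccl9 (20.4 in KO, 15.5 in WT) and Cxcl14 (1.90 in KO, 1.46 in WT) were also wider in KO fat. Single libraries recurred at the extremes. WT library 4 held the lowest level of 6 chemokines (Ccl2, Ccl7, Ccl9, Cxcl1, Cxcl12 and Cxcl14) and the highest of Ccl8. WT library 3 held the highest level of Ccl2, Ccl11 and Cxcl13, and KO library 4 that of Ccl6, Ccl9 and Cxcl14. Summed over the 10 genes, the level was 749, 650.0, 706 and 904 CPM in KO libraries and 1004, 785, 784 and 555 CPM in WT libraries.

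The promoters of the 2 most variable genes are shown, from 250 bases before to 50 after the start site, as RefSeq gives them in build GRCm38.p6. Capitals mark matches on either strand to 3 motifs: the kappaB site searched as GGGA and TTTCC with any 1 base between them, the TATA box as TATAAA and the AP-1 site as TGANTCA.
Cxcl1 promoter, chr5:90890995-90891294, plus strand: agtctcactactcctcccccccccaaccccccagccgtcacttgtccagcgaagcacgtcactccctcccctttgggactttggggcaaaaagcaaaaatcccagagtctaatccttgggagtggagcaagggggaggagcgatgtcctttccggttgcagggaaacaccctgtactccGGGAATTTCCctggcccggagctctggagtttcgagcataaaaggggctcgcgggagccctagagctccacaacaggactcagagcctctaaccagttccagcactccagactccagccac
Cxcl13 promoter, chr5:95956689-95956988, plus strand: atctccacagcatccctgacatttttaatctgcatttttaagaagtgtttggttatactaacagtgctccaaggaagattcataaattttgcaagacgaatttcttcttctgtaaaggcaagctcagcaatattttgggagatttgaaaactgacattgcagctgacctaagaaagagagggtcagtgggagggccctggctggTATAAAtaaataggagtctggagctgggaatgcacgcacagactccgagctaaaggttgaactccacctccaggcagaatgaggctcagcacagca
RefSeq promoters were matched for 7 of the 10 genes, and those of Ccl2, Ccl7 and Ccl11 were not searched. Among the 7, the kappaB letters were found in the promoter of Cxcl1 alone, 71 to 62 bases before the start site. They were found in 0.411% of all 32851 promoters. TATAAA was found in those of Cxcl13, Ccl8 and Ccl9 (13.6% of all promoters), at 46 to 41 and 32 to 27 bases before the start site in Cxcl13 and Ccl8, and TGANTCA in that of Ccl9 (7.81% of all). Matches in Ccl9 overlap each other on opposite strands. A match describes the letters only.

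A list of cytokines, their receptors, NF-kappaB subunits, NF-kappaB inhibitors and NF-kappaB target genes was read beside the chemokines. Of 20 cytokine and NF-kappaB genes 15 were tested, of which 0 rose and 0 fell in edgeR. An unadjusted p under 0.05 was reached by 2 (13.3%, beside 16.2% of all genes tested), and DESeq2 called 2 of the 15, where it called 5.49% of all genes tested. Relb, a partner subunit of the alternative NF-kappaB pathway, had 42.3 ± 2.95 CPM in KO and 32.9 ± 4.07 CPM in WT fat, with no overlap between the groups (SD, n = 4, log2 fold change 0.36, SE 0.10, adjusted p = 0.147). Nfkb2, the other subunit of that pathway, had 56.1 ± 1.48 CPM in KO and 47.8 ± 3.34 CPM in WT fat, again without overlap (log2 fold change 0.23, SE 0.070, adjusted p = 0.169). The DESeq2 calls were these 2 genes. They were also the 2 of the 15 whose groups did not overlap (13.3%, beside 8.86% of all genes tested). Nfkb1 had a log2 fold change of -0.09 (adjusted p = 0.648) and Il1r1, the interleukin 1 receptor, 0.15 (adjusted p = 0.548). Il1b, chosen after its values were seen, held 4.08, 2.001, 0.885 and 1.83 CPM in KO libraries and 5.50, 1.18, 3.36 and 0.393 CPM in WT libraries, highest in WT library 1 and lowest in WT library 4, as Cxcl1 was.

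Receptors were measured in the same libraries. Of 23 receptor genes 17 were tested, of which 0 rose and 0 fell in edgeR. Among them 2 reached an unadjusted p under 0.05 (11.8%, beside 16.2% of all genes tested). DESeq2 called 0 of the 17, where it called 5.49% of all genes tested. The median log2 fold change of the 17 was -0.01. Ackr1 (Darc in the file), an atypical receptor of venules and red cells that binds many chemokines, had 6.62, 6.37, 6.40 and 8.89 CPM in KO libraries, against 11.5, 9.52, 9.93 and 9.17 CPM in WT libraries. The KO libraries were all below the WT libraries, with a log2 fold change of -0.50 (SE 0.16, adjusted p = 0.183). Such separation was seen for this gene alone among the 17 (5.88%, beside 8.86% of all genes tested). None of the 7 endothelial markers passed, and these genes summed to 1208 to 1393 CPM in KO and 1519 to 1733 CPM in WT libraries. All 7 had estimates below 0. The groups did not overlap for 4 (57.1%, beside 8.86% of all genes tested). An unadjusted p under 0.05 in edgeR was also reached by 4 (57.1%, beside 16.2%). The part of these markers in the Ackr1 difference was not tested. Cx3cr1, the fractalkine receptor of monocytes and macrophages, had 13.6 ± 5.12 CPM in KO and 7.25 ± 4.05 CPM in WT fat (SD, n = 4, log2 fold change 0.91, SE 0.39, adjusted p = 0.300), and Xcr1, a receptor of dendritic cells, had a log2 fold change of 0.43 (adjusted p = 0.547).

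Receptors of single ligands were also read, all but Ccr2 outside the rule for named genes. Ccr2 had 61.6 ± 15.7 CPM in KO and 46.2 ± 17.3 CPM in WT fat (SD, n = 4, log2 fold change 0.42, SE 0.27, adjusted p = 0.497). Ccr1 had 10.7 ± 1.48 CPM in KO and 11.3 ± 2.70 CPM in WT fat (log2 fold change -0.08, adjusted p = 0.882). Cxcr4 had 24.8 ± 0.633 CPM in KO and 23.9 ± 4.53 CPM in WT fat, a log2 fold change of 0.05 with an interval from -0.24 to 0.34. Ackr3, which scavenges Cxcl12, had a log2 fold change of -0.01 (interval -0.43 to 0.41), and Cxcr5 had -0.24 (interval -1.38 to 0.89). The receptors named above for Cxcl1, Ccl11 and Ccl8 were too low to test: Cxcr2 had 18 reads over the 4 KO and 15 over the 4 WT libraries, Ccr3 had 21 over the KO and 25 over the WT libraries, and Ccr8 had 9 over the KO and 13 over the WT libraries.

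Of 31 symbols of other ligands 27 were found and 17 tested, of which 0 rose and 0 fell in edgeR. An unadjusted p under 0.05 was reached by 5 (29.4%, beside 16.2% of all genes tested), and DESeq2 called 3 of the 17, where it called 5.49% of all genes tested. The groups did not overlap for 2, Ccl28 and Ccl12, or 11.8%, beside 8.86% of all genes tested. There were 12 estimates above 0 and a median log2 fold change of 0.33, beside -0.01 over all genes tested. Ccl28, a mucosal chemokine, held 2.77, 22.0, 25.2 and 2.55 CPM in KO libraries and 1.38, 1.94, 2.13 and 0.720 CPM in WT libraries (log2 fold change 3.08, SE 0.82, adjusted p = 0.138). KO libraries 2 and 3 held most of it. Those libraries also held 590.5 and 596 CPM of 15 duct epithelium markers, against 43.4 and 57.1 CPM in KO libraries 1 and 4 and 10.6 to 29.9 CPM in WT libraries. Without KO libraries 2 and 3 the log2 fold change of Ccl28 was 0.79 (adjusted p = 0.643), and that of Cx3cl1, the membrane-bound ligand of Cx3cr1, was 0.26, where it was 1.26 with them; Cx3cl1 was chosen after its values were seen.

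Cxcl16, Cxcl10 and Ppbp complete the named ligands. Cxcl16, which draws T cells through CXCR6, had 48.9 ± 9.74 CPM in KO and 32.8 ± 6.82 CPM in WT fat (SD, n = 4, log2 fold change 0.57, SE 0.18, adjusted p = 0.171), and 0.65 without KO libraries 2 and 3. Zmynd15 overlaps it on the opposite strand, with 1346 reads beside its own 4782. Cxcl10, an interferon-induced ligand of CXCR3, held 32.7, 8.74, 14.4 and 6.44 CPM in KO libraries, against 7.65, 5.06, 4.51 and 4.06 CPM in WT libraries (log2 fold change 1.55, SE 0.49, adjusted p = 0.176). Only WT library 1 reached into the KO range. Art3, on the opposite strand, overlaps Cxcl10 with 32587 reads beside its own 1180, and no source used here says whether reads were assigned by strand, which leaves its level uncertain. Ppbp, a platelet chemokine, had 0.708 ± 0.225 CPM in KO and 1.42 ± 0.374 CPM in WT fat (SD, n = 4, log2 fold change -0.99, SE 0.31, adjusted p = 0.178). Its level rests on few reads, 44 over the 4 KO and 79 over the 4 WT libraries.

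**Figure D3:**
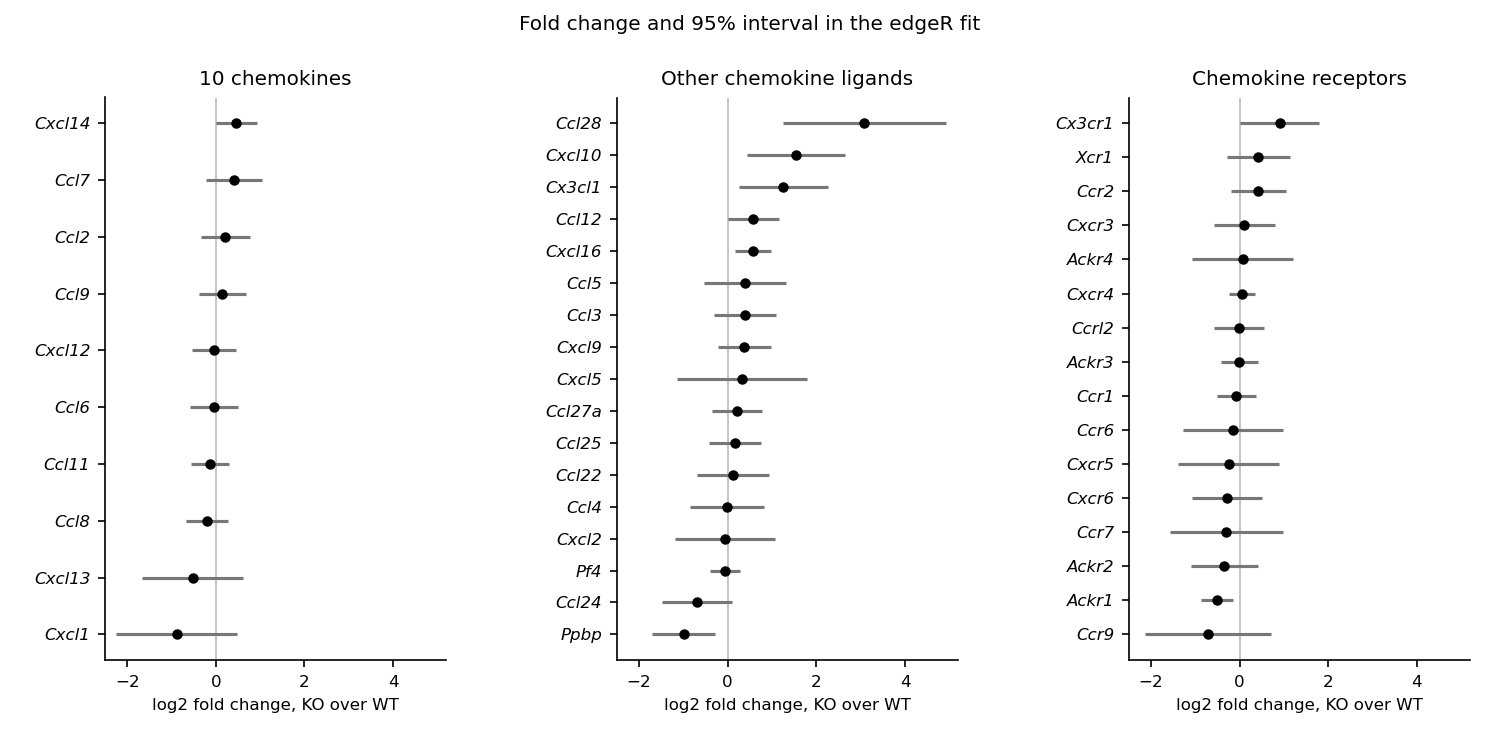
Log2 fold change (KO over WT) with its 95% interval in the edgeR fit for the 10 chemokines, the 17 tested other ligands and 16 of the 17 tested receptors, each panel on the same axis and ordered by estimate. Among the 10 chemokines the interval of Cxcl1 is the widest, from -2.24 to 0.48, and that of Cxcl14 lies just above 0.

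Marker lists give the cell content that the chemokine levels stand beside. Adipocyte genes were abundant in every library, the 11 markers summing to 24980 to 31700 CPM in KO and 27540 to 38640 CPM in WT libraries. Of the 11, 0 passed and 10 had estimates below 0, Cidec being the exception (log2 fold change 0.47). An unadjusted p under 0.05 in edgeR was reached by 4 of them (36.4%, beside 16.2% of all genes tested). The groups did not overlap for 3 (27.3%, beside 8.86% of all genes tested). The 17 macrophage markers summed to 2581, 2009, 2748 and 2498 CPM in KO libraries, against 2501, 2593, 2145 and 1892 CPM in WT libraries; 0 of the 17 passed. The libraries lowest in Ccl6, KO library 2 and WT library 4, were also the lowest of their genotype in this sum. The 9 B cell markers summed to 243 to 660 CPM in KO and 311 to 1095 CPM in WT libraries, and the 10 T cell markers to 63.0 to 133 CPM in KO and 57.5 to 210 CPM in WT libraries. WT library 1 was the highest in both and the highest in Cxcl1 and Cxcl12, whereas Cxcl13, the B cell attractant, was highest in WT library 3, whose B cell sum was 707 CPM. Mesothelial markers, 8 genes, summed to 136 to 418 CPM in KO and 87.3 to 312 CPM in WT libraries, with the lowest sum in WT library 3. The 13 fibroblast and preadipocyte markers summed to 2769 to 3947 CPM in KO and 3363 to 4635 CPM in WT libraries.

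Other leukocyte lists were smaller or uneven. The 7 dendritic cell and MHC class II genes summed to 1902 to 2360 CPM in KO libraries, against 2255 CPM in WT library 1 and 1220 to 1416 CPM in the other WT libraries. The 9 neutrophil markers summed to 4.02 to 9.37 CPM in KO and 6.68 to 9.46 CPM in WT libraries, with Ly6g at 0 in all. The 8 eosinophil and mast cell markers summed to 27.1 to 57.9 CPM in KO and 43.2 to 84.0 CPM in WT libraries, with the eosinophil peroxidase gene Epx at 0 in all. Within this list the mast cell genes Cpa3, Cma1, Mcpt4 and Tpsb2 had log2 fold changes from -1.03 to -0.72. The eosinophil genes Prg2 and Il5ra had -0.02 and -0.27, and none of the list passed. Markers of red cells and platelets, 6 genes, summed to 324.5 to 421 CPM in KO and 311 to 435 CPM in WT libraries. The part of any of these lists in the chemokine levels was not tested.

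**Figure D4:**
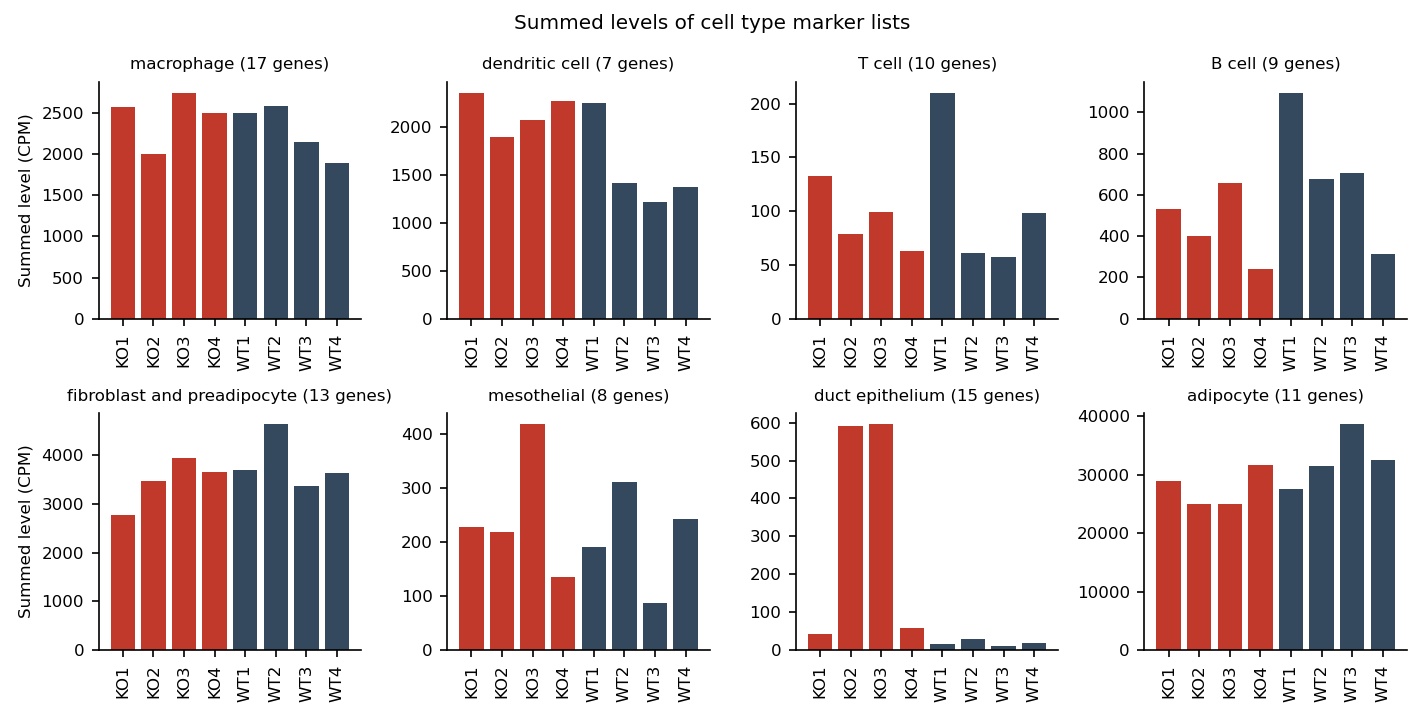
Summed level (CPM, linear axis from 0) of 8 cell type marker lists in each library, KO left of WT. Duct epithelium markers reach 590.5 and 596 CPM in KO libraries 2 and 3 and stay at or below 57.1 CPM elsewhere, while B and T cell markers are highest in WT library 1.

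Without KO libraries 2 and 3 the estimates of the 10 chemokines ranged from -0.63 for Cxcl1 to 0.75 for Ccl7, with 0 of 10 called and a median log2 fold change of 0.11. Ccl6, Ccl11 and Cxcl12 then stood at 0.11, 0.11 and 0.06, above 0 where the estimates over all 8 libraries were below it.

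The genes whose pattern over the 8 libraries came nearest to each chemokine were taken from 11034 tested genes averaging at least 5 CPM. Likeness was the root mean square difference of log2 CPM after each gene was centred on its own mean. Ccr2, which codes for the receptor named above for Ccl7, was among the 2 genes nearest to Ccl7 (0.162). Metrnl was the nearest gene to Ccl9 (0.110) and the next nearest to Ccl6 (0.142), after Gpr81 (0.142). The nearest genes to Cxcl1 and Cxcl13, Cyr61 and Enpep, differed by 0.477 and 0.434. Those 2 chemokines also varied more around their own means, by 0.979 and 0.7625 (root mean square), against 0.281 to 0.438 for the other chemokines. Differences grow with such spread, so these values alone do not show a poorer match. Over Ccl2, Ccl8, Ccl11, Cxcl12 and Cxcl14 the nearest gene differed by 0.0988 (Dnajc28 for Ccl11) to 0.181 (Ppa1 for Ccl2). With 8 libraries and this many genes, close matches are found for most patterns, and these values are a description.

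**Figure D5:**
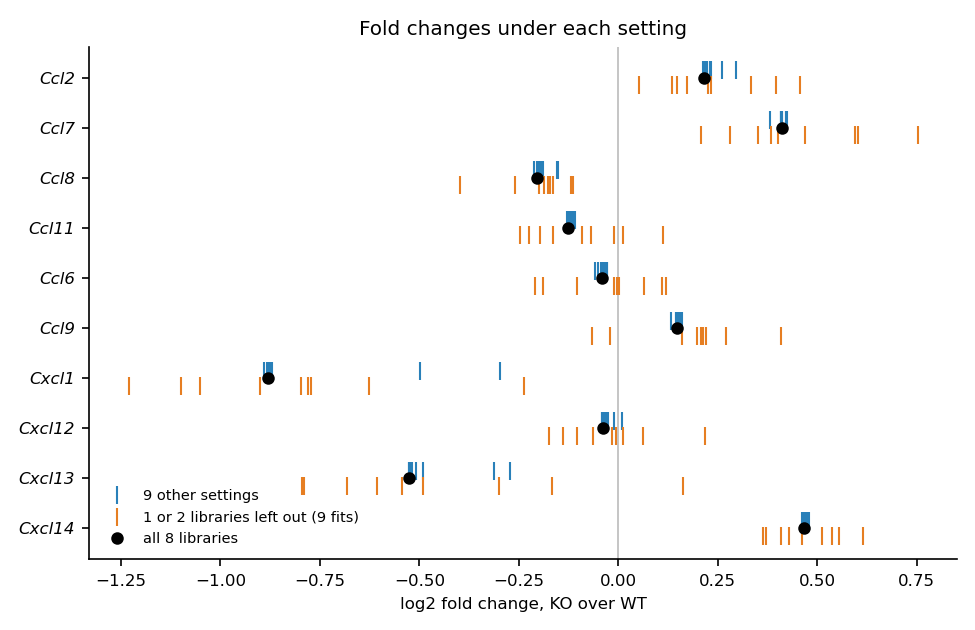
Log2 fold change (KO over WT) of each chemokine with all 8 libraries (black points), under 9 other settings of scaling, filter or test (upper ticks) and in 9 fits that leave out libraries (lower ticks). Values for Ccl6, Ccl9, Ccl11, Cxcl12 and Cxcl13 fall on both sides of 0, while those of Ccl2, Ccl7, Ccl8, Cxcl1 and Cxcl14 stay on 1 side.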

How the data were processed

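Polyadenylated RNA was made into stranded libraries and sequenced as single reads of 50 cycles, per the labels' protocols. Novoalign 2.8.1, Picard and build mm10 are named in the submitters' processing notes; neither the counting program nor the annotation is given in the sources used here. In 1 table the authors deposited raw read counts per gene and library, and FPKM values that the authors had scaled to exonic length and library total; all 158499 FPKM values above 0 matched such scaling of the counts within 0.1%. Library totals ran from 12952190 to 21688464 reads in KO and from 10986375 to 17128811 in WT. Gene starts in the file count from 0 and were raised by 1.

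Counts were tested with edgeR 4.0.16 in R 4.3.3: filterByExpr (minimum count 10, 14800 genes kept), TMM scaling and the quasi-likelihood F test without covariates, Benjamini-Hochberg adjustment over all genes tested and a threshold of 0.05. Standard errors and 95% intervals of log2 fold changes were derived from that test. Alternatives were RLE, upper quartile or no scaling, no filter or 1 CPM in 4 libraries, DESeq2 1.42.0, limma-voom (limma 3.58.1), robust fitting, the replicate number as a block, each library left out, and KO libraries 2 and 3 left out together. On simulated counts for 14800 genes this test found 30% of 50 genes simulated with a 1.5-fold difference, 60% of 50 with a 2-fold, 88% of 50 with a 3-fold and 100% of 50 with a 4-fold difference, and made 4 false calls in all. Those genes were drawn at random from all genes tested. The chemokines varied more (median SD of log2 CPM 0.321 in KO and 0.435 in WT, against 0.185 and 0.203). These rates therefore need not hold for the chemokines.

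The members, gene lists and alternatives were chosen with earlier results of these data known. Named genes are the 10 chemokines, up to 4 genes with the lowest adjusted p in each of 3 lists (other ligands, receptors, cytokines and NF-kappaB genes), and the 2 genes nearest in pattern to each chemokine. Gene lists were matched by Ensembl identifier; Ccl21a, Ccl21b, Ccl21c and Ccl27b were not analysed here, and 1 tested receptor is counted but not reported here. Antisense gene models overlap Ccl2 (0 reads) and Ccl6 (69 reads, beside 13300 of Ccl6). The mice are separate animals, 4 per genotype, so the tests set the genotype difference against variation between mice. That variation is estimated partly from the other genes tested. Libraries of the same genotype all differed by more than sampling noise (lowest chi-square per gene 20.7).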

Additional observations from a re-analysis of the deposited data

Results flagged for a closer look

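Among 44 groups of 4 libraries (the 10 chemokines and the 12 genes named from the other lists, each in KO and in WT), 2 held a library far from the other 3, where chance flags about 1 in 20. Ccl9 in WT library 4 was at 40.7 CPM, below the other WT libraries at 70.2 to 73.35 CPM, a gap of 0.903 of the group's range. Ackr1 in KO library 4 was at 8.89 CPM, above the other KO libraries at 6.37 to 6.62 CPM, a gap of 0.903 of the range.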

How the results depend on the processing

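Members called were 0 of 10 in the fit with all 8 libraries and in all 18 alternatives, and receptors called were 0 in all of them. Of 180 alternative log2 fold changes of the 10 chemokines, 167 kept their direction and 13 turned it; 0 passed, and the lowest adjusted p was 0.154, for Ccl8 without WT library 3. Under RLE, upper quartile or no scaling, either other filter, DESeq2, limma-voom and robust fitting, no direction turned. Without KO libraries 2 and 3 the log2 fold change was 0.11 for Ccl6, 0.11 for Ccl11 and 0.0629 for Cxcl12. Leaving out 1 library gave -0.21 to 0.12 for Ccl6, -0.0656 to 0.27 for Ccl9, -0.25 to 0.0118 for Ccl11, -0.18 to 0.22 for Cxcl12 and -0.80 to 0.16 for Cxcl13; the cause was not tested.

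The number of genes called over all genes was 60, and 813 with DESeq2, 14 with the replicate block, 3 without KO libraries 2 and 3, and 0 to 290 when 1 library was left out (0 without KO library 2, where edgeR had 1573 genes at an unadjusted p under 0.05). DESeq2 called 3 other ligands (Ccl28, Cxcl10 and Cxcl16) and 2 cytokine and NF-kappaB genes (Relb and Nfkb2), where edgeR called 0 of each. With the replicate block Cxcl12 stood at 0.00809, and the block changed no call of the 10 chemokines. Same-numbered KO and WT libraries did not deviate together (correlations of 0.199, -0.109, -0.281 and 0.0684 for numbers 1 to 4). This cannot show whether the numbers pair the mice, because paired mice need not deviate together. Among the 10 chemokines, depth limits Cxcl1 and Cxcl14 most, with 20 to 172 and 78 to 241 reads per library.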
